A study of Mus musculus with 8 samples.

Results

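The genes described here encode the guidance molecules of the ephrin, semaphorin, netrin and Slit systems and their receptors, read in the tips of secondary alveolar septa and in whole lung of mice at postnatal day 6. They were picked out by a rule on gene names, set with earlier results of these data known. It took every probe set of the deposited array table whose single gene symbol has a listed beginning. The beginnings were Efna, Efnb, Epha, Ephb, Sema, Plxn, Nrp, Slit, Robo, Ntn and Unc5, without Slitrk genes. This gave 57 probe sets of 44 genes, among 12422 probe sets without controls, of which 10833 carried 1 gene symbol. Of the 57, 32 probe sets of 25 genes were for ligands (ephrins, semaphorins and netrin-1) and 24 probe sets of 18 genes for receptors (Eph receptors, plexins, neuropilin-1, Robos and Unc5c). The remaining 1, Unc50, shares its first letters with the netrin receptors but encodes a membrane protein of the Golgi apparatus. It is given apart and is in no count of ligands or receptors. No Slit gene met the rule, and Ephb4, Nrp2, Robo4 and Ntn4 were not analysed here.

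Guidance molecules were first described for growing axons and also steer migrating cells and vessel sprouts. Ephrins are bound to the cell surface, the A class by a lipid anchor and the B class by a membrane span, and signal on contact to Eph receptor tyrosine kinases on the neighbouring cell. Semaphorins act through plexins, which regulate small GTPases, and the secreted class mostly needs neuropilins as co-receptors. Netrins act through Dcc, neogenin and Unc5 receptors, and Slits through Robos. In the lung these systems are known from branching of the airways and from the patterning of vessels.

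The tips had been cut by laser from frozen sections, 10000 in all, taken from many day 6 neonates of several litters, while whole lung RNA came from pooled tissue of the same age, and all mice were C57/Bl6 with no allele or treatment named. Each group held 2 RNA samples, from experiments 1 and 2 with different litters, and each RNA was read on 2 Affymetrix arrays at different times, so that 8 arrays stood for 4 RNA samples. Both experiments pooled animals, and the captured tips contain every cell type that the cut area held. Amplification of the RNA is named for each tip array but for only 1 of the 4 lung arrays, whereas the design text has the RNA of both tissues amplified side by side. The groups follow the samples' titles, and the source field of the tip samples also names tips, while their free-text description reads as for whole lung.

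Values are MAS5 signals, a brightness per probe set on a linear scale. Lung arrays had median signals of 501 to 571, and tip arrays of 786 to 923. Background was set for each array at the 95th percentile of its 19 bacterial and yeast controls. It ran from 314 to 568 for lung and from 487 to 1244 for tips. The hybridisation control CreX read 66899 to 89800 in the former and 196846 to 514941 in the latter. The ratio of the 3' to the middle control probe set was lower in tips for beta-actin, at 9.23 to 12.4 against 16.5 to 24.8, and higher for Gapdh, at 1.70 to 2.72 against 0.794 to 1.07. The part of these array differences in the results below was not tested.

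A log2 difference below is tips minus whole lung on the scale log2(signal + 150.09), which understates the change of dim probe sets, with its standard error and n = 2 RNA samples per group. Adjusted p-values are from limma with Benjamini-Hochberg correction over the 7453 probe sets bright enough to be tested, and 0.05 was the threshold. Over all of these, 14.5% passed as higher in tips, 13.7% as lower and 28.3% in all, and the median log2 difference was 0.35. In tissue samples, fewer cells of a type and less RNA per cell cannot be told apart.

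Guidance genes stood on both sides of the comparison. Sema6c, Sema7a, Sema6d, Efnb3 and Ntn1 were the ligands with a probe set called higher in tips, and Sema3e and Efnb2 those with a probe set called lower. Among receptors Plxnd1, Plxnb2 and Ephb6 were called higher, Robo1 was called lower, and Nrp1 was called in opposite directions by its probe sets. For Sema7a, Efnb3 and Ephb6 a further probe set was tested and not called. Of 19 ligand probe sets tested, 5 rose and 2 fell (36.8% called), and the median log2 difference was 0.79. Of 15 receptor probe sets tested, 5 rose and 2 fell (46.7% called), with a median of 0.84, so ligands and receptors gave the same counts of probe sets. By gene, 5 ligands rose and 2 fell. For receptors 4 genes rose and 2 fell, with Nrp1 in both counts. The fall of Nrp1 rests on 92773_at alone, and whether that probe set reads Nrp1 was not checked. On the arrays themselves, the 4 tip arrays were all above the 4 lung arrays for 8 ligand and 5 receptor probe sets and all below them for 2 and 1. Over all probe sets tested, 24.1% were wholly above and 18.0% wholly below.

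**Figure D1:**
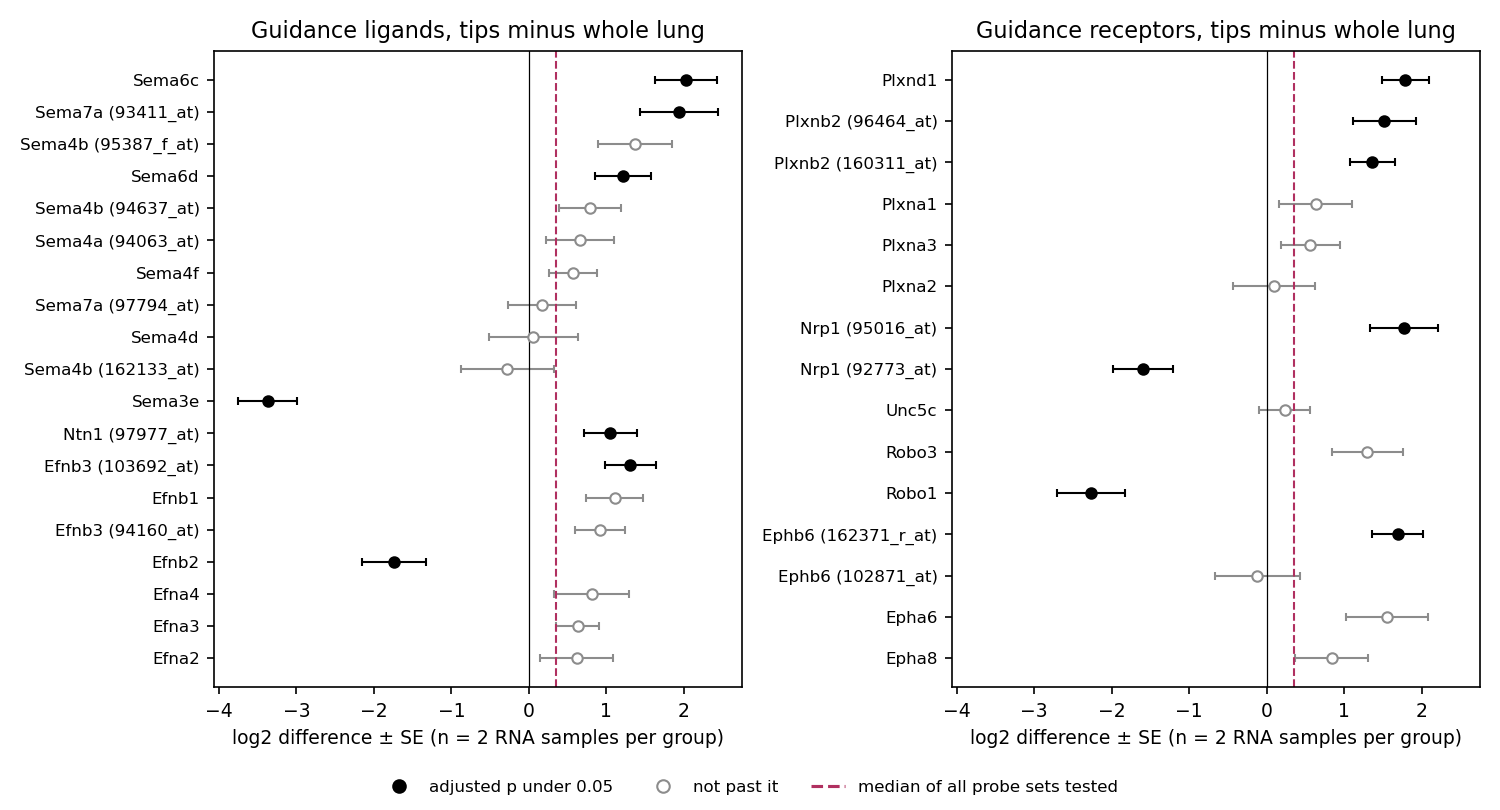
Log2 difference of tips minus whole lung with its standard error for the 19 ligand and 15 receptor probe sets tested, grouped by family. Filled points passed an adjusted p of 0.05, and the dashed line marks the median of all probe sets tested, 0.35. Sema3e at -3.37 and Sema6c at 2.03 are the extremes.

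Promoters of the member genes are shown because a ligand and its receptor, Sema3e and Plxnd1, lay on opposite sides, and because Robo1 and Efnb2 were the other ligand and receptor genes whose tip arrays were all below lung. The lines give the 250 bases before the RefSeq transcript start of each (GRCm38.p6), 5′ to 3′ on the strand of the gene, with the GC box GGGCGG, read on both strands, in capitals. Sema3e lies at chr5:14025026-14025275 on the plus strand, Plxnd1 at chr6:115995006-115995255 on the minus strand, Robo1 at chr16:72662899-72663148 on the plus strand and Efnb2 at chr8:8661243-8661492 on the minus strand.
Sema3e: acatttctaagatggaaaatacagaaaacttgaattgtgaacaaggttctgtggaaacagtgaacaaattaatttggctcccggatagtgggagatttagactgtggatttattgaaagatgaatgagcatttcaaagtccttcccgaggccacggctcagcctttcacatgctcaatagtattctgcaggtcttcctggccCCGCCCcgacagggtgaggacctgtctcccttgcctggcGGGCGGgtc
Plxnd1: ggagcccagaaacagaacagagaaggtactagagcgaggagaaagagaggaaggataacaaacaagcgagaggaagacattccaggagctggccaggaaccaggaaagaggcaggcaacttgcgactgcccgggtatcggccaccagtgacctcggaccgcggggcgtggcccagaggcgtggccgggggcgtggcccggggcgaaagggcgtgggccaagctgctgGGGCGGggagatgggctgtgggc
Robo1: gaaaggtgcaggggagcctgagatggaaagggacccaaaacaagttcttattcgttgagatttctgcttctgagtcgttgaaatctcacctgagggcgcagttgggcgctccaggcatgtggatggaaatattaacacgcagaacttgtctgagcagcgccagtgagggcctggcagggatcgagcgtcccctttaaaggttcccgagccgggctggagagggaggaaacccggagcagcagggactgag
Efnb2: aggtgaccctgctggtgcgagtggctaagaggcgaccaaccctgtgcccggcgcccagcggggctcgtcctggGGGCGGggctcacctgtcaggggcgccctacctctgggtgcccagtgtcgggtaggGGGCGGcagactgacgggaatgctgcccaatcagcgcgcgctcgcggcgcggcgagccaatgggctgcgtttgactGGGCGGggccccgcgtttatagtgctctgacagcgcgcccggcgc

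These windows hold 2 GC boxes for Sema3e, 1 for Plxnd1, 0 for Robo1 and 3 for Efnb2, and their GC content is 48.0%, 64.8%, 56.0% and 72.0%. Windows were found for 38 of the 44 member genes, 51 windows in all. The GC box was in 38 of the 51 (74.5%), against 32.7% of 32851 windows of all genes, and the median GC content was 64.0% against 52.4%. By role, 21 of 31 ligand windows and 16 of 19 receptor windows held it. The TATA box TATAAA was in 1 member window, that of Efnb2 on the reverse strand, against 12.4% of all, and the E-box CACGTG in 3, against 6.02%. Of the members called only higher in tips 7 of 9 windows held a GC box, and of those called only lower, Unc50 among them, 3 of 4. Nrp1, called both ways, is in neither count.

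The largest change of any ligand was that of Sema3e, a secreted semaphorin that binds plexin-D1 without a neuropilin and repels endothelial sprouts. Its promoter window had the lowest GC content of the 4 printed. Its signals were 5393 and 3303 on the lung arrays of experiment 1, and 4760 and 3001 on those of experiment 2. On the tip arrays they were 636 and 141 in experiment 1, and 192 and 182 in experiment 2. The groups were far apart, and every tip array lay under its own background. Sema3e fell by 3.37 ± 0.38 on the log2 scale (limma adjusted p = 0.00111), with differences of -3.19 in experiment 1 and -3.54 in experiment 2. The tip arrays did not measure the transcript, so the size depends on the floor: lung was 5.11-fold brighter than the mean of the tip arrays' own backgrounds. With all values under 1244, the highest background of any array, set to 1244 (the common floor), the difference was -1.57 (adjusted p = 0.0276).

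Sema6c and Sema6d encode membrane-spanning semaphorins of the class that signals through A-type plexins. Sema6c read 715 and 898 on the lung arrays of experiment 1, 915 and 720 on those of experiment 2, 5344 and 5613 on the tip arrays of experiment 1, and 2122 and 3141 on those of experiment 2. At its only probe set, 160700_i_at, it rose by 2.03 ± 0.40 (limma adjusted p = 0.00778), by 2.56 and 1.51 in the experiments. All tip arrays were above all lung arrays, and the lung arrays lay close together while the tip RNAs differed from each other. Sema6d read 577, 734, 763 and 600 on the lung arrays and 2575, 1392, 1485 and 1730 on the tip arrays, again with no overlap. It rose by 1.22 ± 0.36 (limma adjusted p = 0.0358), and by 1.35 and 1.08 in the experiments. With the common floor its difference was 0.44 (adjusted p = 0.622) and with the floor put at 792, which was the second highest background, it was 1.01 (0.0900). Sema6a and Sema6b, of the same class, were too dim to be tested. Their signals ranged from 73.2 to 436 and from 59.4 to 140 in lung, and from 330 to 1143 and from 112 to 879 in tips.

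Sema7a, a lipid-anchored semaphorin that also binds integrins, gave a split result. At the probe set 93411_at it read 459, 176, 25.2 and 193 on the lung arrays and 2282, 425, 1276 and 1132 on the tip arrays. Only 1 lung array was above background there, and 1 tip array lay below the brightest lung array. This probe set rose by 1.94 ± 0.50 (limma adjusted p = 0.0213), whereas 97794_at read 376, 681, 985 and 998 in lung and 338, 1374, 1415 and 625 in tips. The latter overlapped between groups, at 0.17 ± 0.44 (adjusted p = 0.796). The size at 93411_at is set against a group that was mostly under background: it was 0.21 with the common floor and 0.60 (adjusted p = 0.482) with the floor at 792, neither past the threshold.

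The class 4 semaphorins, membrane proteins with plexin-B receptors and roles in immune and vascular cells, had 6 probe sets tested and none past the threshold in limma. Sema4f was the brightest, at 4779, 4073, 3608 and 3603 in lung and 7513, 6540, 5102 and 5081 in tips. Its groups did not overlap, and the log2 difference was 0.57 ± 0.31 (adjusted p = 0.188). The 3 probe sets of Sema4b gave 1.37 ± 0.48, 0.79 ± 0.40 and -0.28 ± 0.60. The first, 95387_f_at, had an adjusted p of 0.0599, and of 0.0477 with the experiment as a replicate block. The last, 162133_at, read 520 and 345 on the tip arrays of experiment 1 but 2135 and 2395 on those of experiment 2, on either side of the lung range of 936 to 1902. Sema4d was also divided by experiment, at -0.90 and 1.02, and Sema4a gave 0.66 ± 0.44 at 94063_at.

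Apart from Sema3e, the secreted class 3 semaphorins were too dim to be tested. Sema3a, which collapses growth cones through neuropilin-1, read 311, 677, 653 and 374 in lung and 1033, 305, 431 and 127 in tips, which overlapped. Sema3c, an attractant for vessels and neural crest cells, read 359, 450, 744 and 801 in lung and 309, 195, 114 and 543 in tips. All 4 tip values of Sema3c were under background, 3 of the lung values were above it, and the untested log2 difference was -0.79. Sema3f and a probe set of Sema3b were under background on every array, and the other Sema3b probe set exceeded it on 1 tip array, at 1503. Sema5a and Sema5b, whose proteins carry thrombospondin repeats, had signals from 117 to 1088 and from 95.8 to 1399 over all arrays.

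The B-class ephrins went opposite ways. Efnb2, the ephrin of arterial endothelium and pericytes, had signals of 26927 and 23547 on the lung arrays of experiment 1, and of 16422 and 14323 on those of experiment 2. In tips they were 3245 and 4891 in experiment 1 and 9508 and 7290 in experiment 2. Every tip array was below every lung array, and the experiments differed in how far. Efnb2 fell by 1.74 ± 0.41 (limma adjusted p = 0.0155), with differences of -2.61 in experiment 1 and -0.87 in experiment 2. The difference was -1.24 with quantile normalization and -1.10 with cyclic loess, and neither passed. Without the lung RNA of experiment 1 it was -1.39 (adjusted p = 0.133).

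Efnb3, the ephrin of the midline of the nervous system, was higher in tips at the probe set 103692_at. There it read 906, 1015, 964 and 972 in lung and 2228, 2553, 2931 and 2745 in tips. The lung arrays were nearly equal, and all tip arrays lay above them. It rose by 1.31 ± 0.33 (limma adjusted p = 0.0206), with 0.98 (0.0935) under the common floor. The further probe set 94160_at, also without overlap, gave 0.92 ± 0.32 (adjusted p = 0.0593). Efnb1, an X-linked ephrin of craniofacial and skeletal development, read 2779, 3361, 4993 and 5903 in lung and 7540, 6843, 11840 and 10531 in tips, without overlap. Its difference of 1.11 ± 0.37 had an adjusted p of 0.0514, and of 0.0120 with the experiment as a replicate block.

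None of the A-class ephrins tested passed in limma. Efna3 had 3257, 4545, 3533 and 3607 in lung and 3849, 8710, 3690 and 9216 in tips, where array 1 of each tip RNA was near lung and array 2 was more than any lung array. Its difference was 0.63 ± 0.28 (adjusted p = 0.120), and 0.91 ± 0.29 (0.0408) with cyclic loess. Efna2 and Efna4 gave 0.62 ± 0.47 and 0.81 ± 0.48, and Efna1 and Efna5 were too dim to be tested. Efna1 was under background on all arrays, and Efna5 exceeded it on 1 tip array. In the GRCm38.p6 gene table Efna1, Efna3 and Efna4 follow each other with 0 protein-coding genes between them, and of these only Efna3 was above background on all arrays.

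Ntn1, which encodes netrin-1, a laminin-related attractant and repellent, rose at the probe set 97977_at. The lung arrays read 1170, 1578, 938 and 1065 and the tip arrays 3418, 2188, 2166 and 2707, with no overlap. The log2 difference was 1.05 ± 0.34 (limma adjusted p = 0.0457), which is 0.70 above the median of all probe sets, and it did not pass under quantile normalization, median centring, cyclic loess or either floor. The probe set 97728_at was under background on all 8 arrays.

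**Figure D2:**
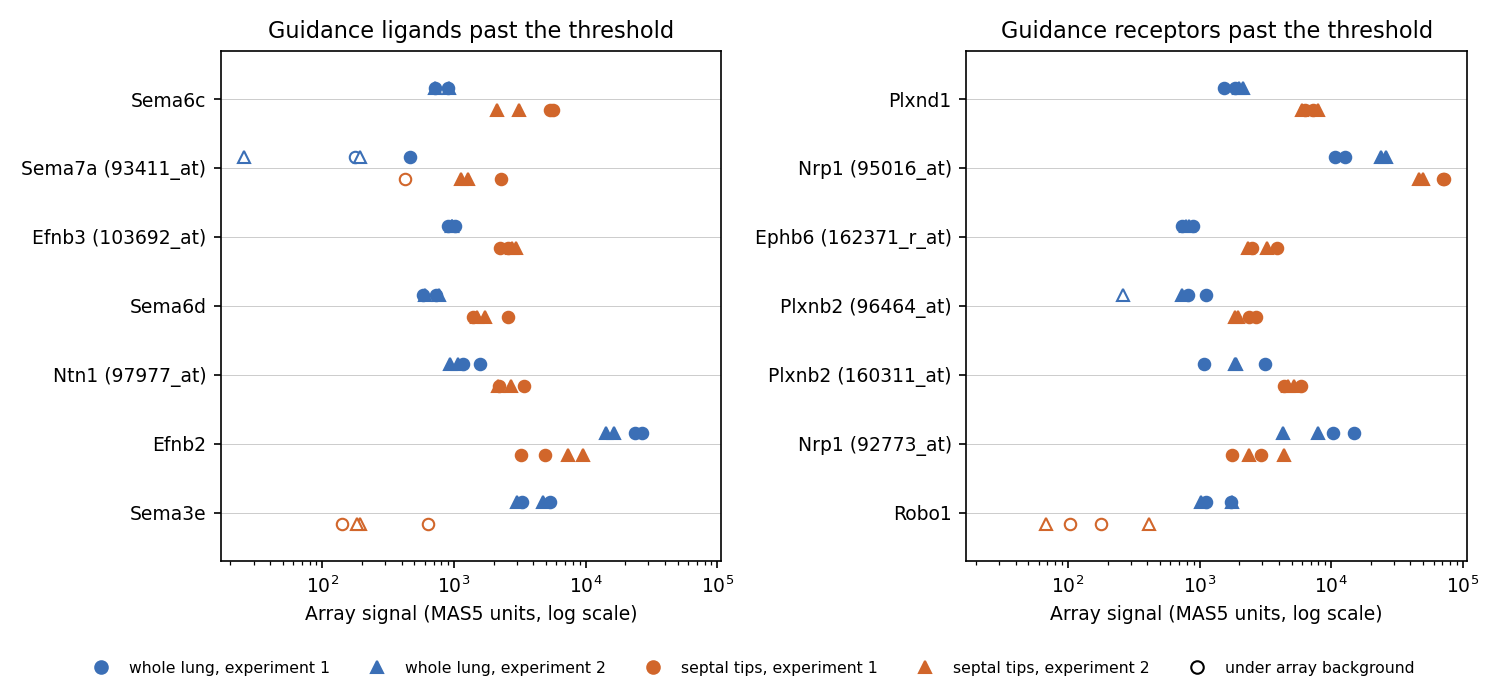
Signal on each of the 8 arrays, on a log axis, for the 7 ligand and 7 receptor probe sets past the threshold, with lung in blue and tips in orange, circles for experiment 1 and triangles for experiment 2. Open symbols lie under the background of their array. Sema3e and Robo1 are open on all 4 tip arrays.

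Plexins were tested with 6 probe sets, of which 3 rose and 0 fell, where 14.5% of all probe sets rose and 13.7% fell. Plxnd1, the receptor of semaphorin 3E on endothelial cells, read 1522 and 1874 on the lung arrays of experiment 1, 1977 and 2145 on those of experiment 2, 6321 and 7339 on the tip arrays of experiment 1, and 7906 and 5957 on those of experiment 2. The groups were well separated and the RNA samples of each group close. Plxnd1 rose by 1.79 ± 0.30 (limma adjusted p = 0.00387), by 1.92 and 1.67 in the experiments. The receptor gene was higher where its ligand gene Sema3e was under background.

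Plxnb2, a plexin-B that binds class 4 semaphorins and angiogenin, rose at both of its probe sets. At 160311_at it read 3155, 1074, 1891 and 1854 in lung and 4413, 5928, 5195 and 4732 in tips, a difference of 1.36 ± 0.29 (limma adjusted p = 0.0108). At 96464_at it read 819, 1121, 261 and 737 in lung and 2672, 2367, 1865 and 1946 in tips, a difference of 1.52 ± 0.41 (0.0265). The first was 0.93 (0.111) with array 1 of each RNA only, and the second 0.75 (0.338) with the common floor and 1.19 (0.0803) with the floor at 792. Neither overlapped between groups, and the experiments gave 1.39 and 1.34 at the first and 1.26 and 1.77 at the second. The A-type plexins, which transduce class 3 and class 6 semaphorins, did not pass in limma. Plxna1, Plxna2 and Plxna3 gave 0.63 ± 0.47, 0.09 ± 0.53 and 0.56 ± 0.38, with overlapping arrays.

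Nrp1, which encodes the co-receptor neuropilin-1 for class 3 semaphorins and for VEGF-A, had 2 probe sets that were called in opposite directions. At 95016_at the lung signals were 10767 and 12807 in experiment 1 and 23894 and 26071 in experiment 2. The tip signals were 70539 and 72062 in experiment 1 and 49806 and 46839 in experiment 2. This is the brightest probe set of the family, with no overlap, and it rose by 1.77 ± 0.44 (limma adjusted p = 0.0186), by 2.59 and 0.95 in the experiments. At 92773_at the lung signals were 14782, 10399, 7881 and 4334 and the tip signals 2936, 1766, 4375 and 2366. Here 1 tip array was just above the lowest lung array, and the value fell by 1.60 ± 0.39 (limma adjusted p = 0.0182), with -2.37 and -0.83 in the experiments. Both probe sets were above background on all arrays. Each is named Nrp1 by the array annotation alone, and the probe sets come from different sequence records. No sequence used here shows which transcript 92773_at reads, and whether it is Nrp1 was not checked. No direction is therefore given for the gene. Without the lung RNA of experiment 1 neither passed, at 1.23 (adjusted p = 0.197) and -1.07 (0.185).

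**Figure D3:**
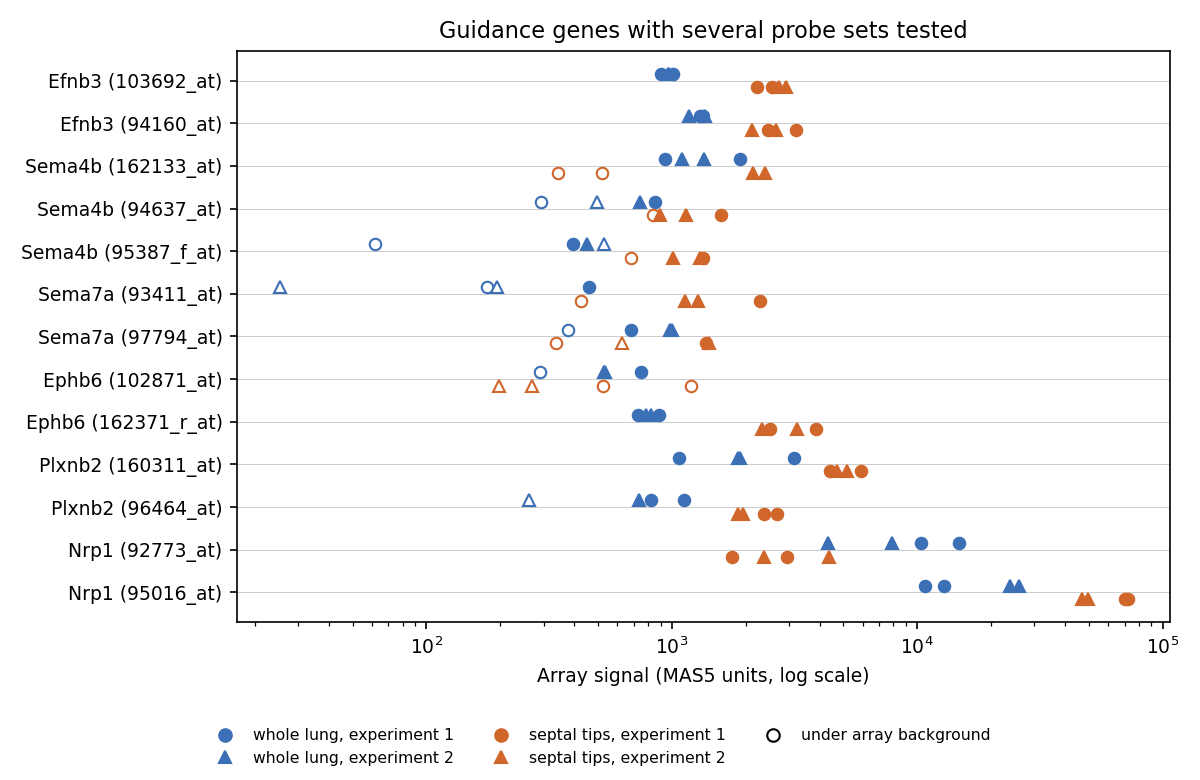
Signal on each of the 8 arrays, on a log axis, for the 6 guidance genes with several probe sets tested, with lung in blue, tips in orange and open symbols under background. The probe sets of Efnb3 and of Plxnb2 lie the same way, whereas those of Nrp1 lie in opposite directions, at 1.77 and -1.60.

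Such disagreement was not particular to Nrp1. Over the table, 896 genes had 2 or more probe sets tested and 112 had 2 or more called, and in 13 of these (11.6%) the calls went opposite ways. Among guidance genes, Plxnb2 was the other one with 2 called probe sets. Ephb6 was divided as well, although only 1 of its probe sets was called.

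Of the Robo receptors, Robo1, a Slit receptor studied in lung development, was lower in tips. It read 1744 and 1128 on the lung arrays of experiment 1, 1777 and 1028 on those of experiment 2, 103 and 178 on the tip arrays of experiment 1, and 68.2 and 412 on those of experiment 2. Every lung array was above background and every tip array under it. Robo1 fell by 2.27 ± 0.44 (limma adjusted p = 0.00747), with -2.43 and -2.10 in the experiments. Lung was 1.76-fold brighter than the mean of the tip arrays' own backgrounds, but 2 of the lung signals were under 1244. With the common floor of 1244 the difference was -0.23 and did not pass, and with the floor at 792 it was -0.70 (adjusted p = 0.341). Robo3, a Robo of commissural axons, gave 1.30 ± 0.46 (adjusted p = 0.0634), with 387, 512, 204 and 283 in lung and 2052, 300, 1792 and 881 in tips. The netrin receptor gene Unc5c was above background on all arrays, at 1961 to 3836 in lung and 2306 to 4050 in tips, and gave 0.23 ± 0.33 (adjusted p = 0.624).

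Eph receptors were mostly dim. Of 10 EphA probe sets 2 were tested, and of 3 EphB probe sets 2. Ephb6, an Eph receptor without kinase activity, rose at 162371_r_at, where lung read 885, 731, 785 and 825 and tips 3885, 2524, 2330 and 3228. The difference was 1.69 ± 0.33 (limma adjusted p = 0.00751), with 1.78 and 1.60 in the experiments and no overlap, and 1.15 (0.0563) with the common floor. The ending r_at marks a probe set for which some rules of probe choice were dropped. The other probe set, 102871_at, exceeded the background on no tip array and gave -0.12 ± 0.55 (adjusted p = 0.883), with 748, 291, 534 and 531 in lung and 522, 1193, 198 and 269 in tips.

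Epha6 and Epha8, receptors known mainly from the nervous system, were the EphA genes tested. Epha6 gave 1.55 ± 0.53, from 212, 503, 92.2 and 440 in lung to 2151, 1481, 259 and 1459 in tips. Its adjusted p was 0.0553, and 0.0296 with the experiment as a replicate block. Epha8 gave 0.84 ± 0.47 (adjusted p = 0.196), with overlap. Epha2, an epithelial receptor of ephrin-A1, was under background on every array, at 91.2 to 203 in lung and 175 to 356 in tips. The probe sets of Epha3, Epha4, Epha5 and Epha7 and that of Ephb3 were likewise too dim to be tested.

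In all, 22 member probe sets of 18 genes were too dim to be tested. Their untested differences ranged from -0.79 for Sema3c to 1.33 for Sema6a, and 7 were under background on all 8 arrays. Among the 57 probe sets 61.4% were bright enough for the test, near the 60% that the filter keeps of all by its construction. Unc50, kept apart above, read 20393 to 29660 on the lung arrays and 2507 to 3628 on the tip arrays. It fell by 2.94 ± 0.30 (limma adjusted p = 0.000941), with -2.94 in each experiment.

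How many of the guidance genes passed depended on how the arrays were brought to a common level. The median difference of all probe sets was 0.35 with the trimmed mean used here, 0.03 with quantile normalization, -0.19 with median centring and 0.06 with cyclic loess. Relative to the 0.35, Sema3e differed by -3.72, Robo1 by -2.62, Efnb2 by -2.09, Sema6c by 1.68, Plxnd1 by 1.44 and Ephb6 at 162371_r_at by 1.34. Of these 6, all but Efnb2 passed under each of these scalings, as did Nrp1 at 92773_at and Unc50. Efnb3, Ntn1, Sema6d, Sema7a and Plxnb2 at 96464_at passed with the trimmed mean, or with no rescaling, only. Nrp1 at 95016_at and Plxnb2 at 160311_at were lost with median centring alone.

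With quantile normalization 2 ligand probe sets rose and 1 fell, and 4 receptor probe sets rose and 2 fell, where 8.29% of all probe sets rose and 13.6% fell. With median centring the counts were 1 and 2 for ligands and 2 and 2 for receptors, against 3.64% and 20.3% of all. With cyclic loess they were 3 and 1 for ligands and 4 and 2 for receptors, against 10.9% and 15.3%. No called guidance probe set changed sign under any of these scalings. With the common floor of 1244, 3 ligand and 4 receptor probe sets passed, where 11.7% of all did. With the floor at 792, 4 and 5 passed (17.1% of all), and with array 1 of each RNA alone 3 and 6 (16.5%). With the experiment as a replicate block 9 and 8 passed, against 32.9% of all.

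**Figure D4:**
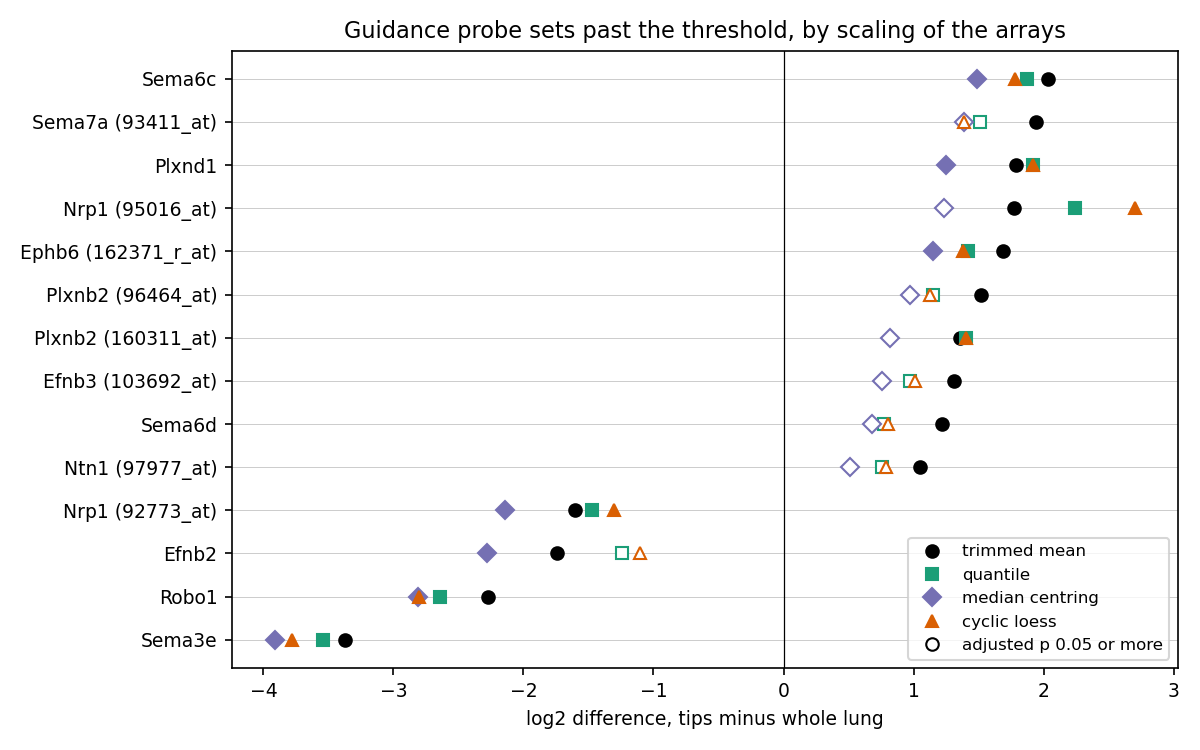
Log2 difference of tips minus whole lung for the 14 ligand and receptor probe sets past the threshold, under 4 scalings of the arrays. Filled symbols passed an adjusted p of 0.05 and open symbols did not. All symbols of a probe set lie on the same side of 0, and the values with median centring lie below those with the trimmed mean.

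Leaving out 1 RNA sample changed the counts in opposite ways. Without the lung RNA of experiment 1, 2 of the 15 called member probe sets passed (Sema3e and Unc50), while calls over all probe sets went from 2106 to 349 (4.68%). Without the lung RNA of experiment 2, 6 of 15 passed (Sema3e, Unc50, Efnb2, Plxnd1 and both of Nrp1), with 556 calls over all (7.46%). Without the tip RNA of either experiment all 15 passed, with 2719 calls (36.5%) without that of experiment 1 and 3324 (44.6%) without that of experiment 2. Over these 4 fits the difference stayed between -3.62 and -3.12 for Sema3e, between 1.66 and 1.93 for Plxnd1, between 1.51 and 2.56 for Sema6c and between -2.26 and -1.22 for Efnb2.

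Other genes of the guidance pathways, listed for their known role, gave shares near those of all probe sets. Of 76 genes listed 35 were tested, with 47 probe sets, of which 7 rose and 7 fell (14.9% each). Over all probe sets 14.5% rose and 13.7% fell, and the median was 0.35 in both. The decreases were led by Sdcbp, which encodes syntenin, a PDZ protein that binds the tails of B-class ephrins. It fell by 3.42 ± 0.33 (limma adjusted p = 0.000941). Lung read 8444 ± 1358 and tips 699 ± 233 (SD, n = 2). Rock1, a kinase downstream of RhoA, fell by 2.15 ± 0.39 at 160746_at (0.00561), with 0.87 at another probe set. Only 1 tip array was above background at 160746_at. Rac1, a small GTPase of protrusion, fell from 37977 ± 11583 to 13187 ± 2657 (SD, n = 2; 0.0162).

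Among the increases, Vasp, an actin regulator, rose by 2.56 ± 0.43 (limma adjusted p = 0.00422), from 445 ± 284 to 3122 ± 379 (SD, n = 2). Limk1, a kinase that inactivates cofilin, rose by 2.02 ± 0.43 at 102888_s_at (0.0105) and by 0.89 ± 0.29 at 102889_r_at (0.0492). Vegfa, a ligand of neuropilin-1, rose by 1.58 ± 0.39 (0.0188). Its lung signals were 319, 459, 546 and 321, and only 2 of them were above background. Rhoa, the central GTPase of repulsive signalling, was called in both directions: it fell by 1.52 ± 0.32 at 101112_g_at (0.00997) and rose by 1.36 ± 0.37 at 101111_at (0.0268). The netrin receptor Dcc was under background on all arrays, and its relative Neo1 gave -0.69 ± 0.38 (adjusted p = 0.191). The VEGF receptor genes Kdr and Flt1, whose products pair with neuropilin-1, gave 0.05 ± 0.32 and, at the brighter of its probe sets, 0.91 ± 0.35 (adjusted p = 0.921 and 0.0776).

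Markers of the cells that could carry these genes differed between the samples too. For capillary and general endothelium, known to express Plxnd1 and Nrp1, 6 of 10 probe sets tested rose and 2 fell, and the summed signal of the list was between 109303 and 154392 on lung arrays and between 375483 and 387182 on tip arrays, most of it from Eng. For arterial and large vessel endothelium 0 of 8 rose and 2 fell, with sums from 20899 to 23630 and from 20378 to 26527. The 2 were Nr2f2, at -1.19 ± 0.37, and Vcam1 at 92558_at, at -2.38 ± 0.32, with 1.30 ± 0.44 at 92560_g_at. Gja5, Sox17, Hey1 and Vwf had no called probe set, with 1.10 ± 0.52 for Gja5 and -0.91 ± 0.41 for Hey1. For smooth muscle and myofibroblasts 5 of 7 rose and 0 fell, with sums from 18135 to 43159 and from 35617 to 51691. Acta2, the brightest of this list, and Cnn1 were not called. Acta2 read 17565 ± 10339 in lung and 17743 ± 3373 in tips (SD, n = 2). Airway markers rose in 2 of 4, with sums from 15088 to 25589 and from 34027 to 86805.

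For nerve, glia and neuroendocrine cells 4 probe sets were tested, of which 1 rose and 1 fell, with sums from 2475 to 3658 in lung and from 3370 to 7958 in tips, and Snap25 and Nefm were under background on every array. In the lists for fibroblasts, alveolar type I and II cells, myeloid cells, lymphocytes, mesothelium and red cells between 0 and 2 probe sets rose and 0 or 1 fell. Of 4 alveolar type II probe sets tested, only that of the surfactant gene Sftpc was called. Sftpc read 27130 ± 8140 in lung and 102537 ± 5425 in tips (SD, n = 2). Sftpb, Napsa and Sftpd gave 0.69 ± 0.31, 0.44 ± 0.34 and 0.42 ± 0.49. For alveolar type I cells 0 of 3 rose and 1 fell, with sums from 70470 to 82234 in lung and from 34575 to 45468 in tips. The part of these marker differences in the results above was not tested.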

How the data were processed

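RNA of captured septal tips and of whole lung was extracted, amplified and biotin-labelled, per the labels' protocols. The deposited signal intensities are MAS5 output, as the submitters' processing notes state without a version. A genome build is not given in the sources used here. Here each array was scaled to the same mean after leaving out 2% at each end (1500.9), 150.09 (10% of it) was added, and log2 was taken. The 66 control probe sets and those under the 40th percentile of mean log2 value were left out, which left 7453. Arrays of an RNA were averaged first. The group difference was fitted by lmFit and eBayes (intensity trend) of limma 3.58.1 under R 4.3.3, with 2 residual degrees of freedom and 7.05 from the prior. The spread behind each p-value is that between 2 RNA samples per group, drawn by eBayes toward the trend over all probe sets tested. The number of RNA samples limits the precision (median standard error 0.397). The design text gives tips and lung of an experiment parallel processing, so the experiment number pairs them. Their deviations from the group means correlated at 0.0452. The main fit does not use this pairing, and only the fit with the experiment as a replicate block does. Symbols were updated by gene ID to GRCm38.p6 RefSeq. The procedure was tested on simulated data with normal values and a small share of changed probe sets. Differences between the groups in background or signal level were not simulated, so that test says nothing about them.

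All member genes were named. Values on every array were given for called probe sets, for further probe sets of those genes and for a preset list, and of the partner genes at most 4 per direction by smallest p, apart from others named for their role. The members, lists and rules were chosen with earlier results of these data known. The alternatives were other scalings, offsets of 3% and 30%, other filters, floors at the background, the experiment as a block, all arrays with the RNA as a random block, single arrays, no intensity trend, and leaving out each RNA. Floored differences were set against the standard errors without a floor, since values at the floor have no spread.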

Additional observations from a re-analysis of the deposited data

Results flagged for a closer look

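Over the 4 arrays of each group, 70 sets of values of the tested member probe sets were examined for an array far from the others. Only 1 was found, where chance gives about 1 in 20 for independent values. Repeat arrays of an RNA are not independent, so that rate need not hold here. Array 1 of the tip RNA of experiment 1 read 636 for Sema3e, while the other tip arrays read 141, 192 and 182, a gap of 0.837 of the range on the log2 scale. All were under the background of their array and below every lung array.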

How the results depend on the processing

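Ligand calls moved from 7 to 3 with quantile normalization, 3 with median centring, 4 with cyclic loess, 3 with the common floor (values under 1244 set to it), 4 with the lower floor at 792 and 3 with array 1 of each RNA only. Receptor calls moved from 7 to 4 with median centring and to 4 with the common floor. Partner gene calls moved from 14 to 9 with quantile normalization, 5 with the common floor, 9 with the lower floor, 5 with array 1 only and 8 with no intensity trend. Calls over all probe sets moved from 2106 to 873 with the common floor, 1273 with the lower floor and 1229 with array 1 only. With 1 RNA sample left out, where the lone RNA is assumed to vary like those of the other group, calls ranged from 349 to 3324 over all probe sets, from 1 to 10 for ligands, from 0 to 9 for receptors and from 1 to 23 for partner genes. With the experiment as a replicate block, 2452 probe sets passed in all, 9 for ligands and 8 for receptors. All 15 called members passed in that fit, and Efnb1, Sema4b at 95387_f_at and Epha6 passed in addition.

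The members that changed sign were uncalled ones. Sema4d (0.06) gave -0.42, -0.48 and -0.46 with quantile normalization, median centring and cyclic loess and -0.03 with array 2 only. Under the same 4 settings Plxna2 (0.09) gave -0.41, -0.45, -0.47 and -0.32. Under the 3 scalings Sema7a at 97794_at (0.17) gave -0.34, -0.38 and -0.32. Unc5c (0.23) gave -0.31 with median centring and Plxna1 (0.63) -0.24 with array 1 only. Sema4b at 162133_at (-0.28) gave 0.23 and 0.08 with the common and the lower floor, and Ephb6 at 102871_at (-0.12) 0.13 with the lower floor and 0.45 with array 2 only. With 1 RNA sample left out, values ranged from -1.31 to 0.75 for Sema4b at 162133_at, from -0.78 to 0.90 for Sema4d, from -0.23 to 0.56 for Sema7a at 97794_at, from -0.78 to 0.54 for Ephb6 at 102871_at, from -0.08 to 0.54 for Unc5c and from -0.40 to 0.57 for Plxna2. The cause of these changes was not tested. Dim probe sets near background limit what these arrays can show.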

Other observations

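Besides Nrp1, the genes whose probe sets were called in opposite directions were Bnip2, Col5a1, Diaph1, Dnajb6, Fignl1, Nmt1, Noct, Pbrm1, Rab14, Rhoa, Sec61a1 and Ubxn1. Of the 13, Rhoa and Diaph1, a formin that RhoA activates, belong to the cytoskeletal branch of guidance signalling.

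The repeat arrays of an RNA disagreed for some members. With array 1 of each RNA only, Robo3 gave 2.25 ± 0.51 (limma adjusted p = 0.0264), and with array 2 only 0.35 ± 0.70 (0.747). Efna3 gave 0.15 ± 0.31 (0.762) with array 1 and 1.12 ± 0.29 (0.0323) with array 2. The difference between the arrays was not tested.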
